A study of Mus musculus with 4 samples.

Results

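The genes described here are 10 genes of antigen presentation by major histocompatibility complex (MHC) class I, chosen by name for their place in that pathway. They are the class I heavy chain genes *H2-K1*, *H2-D1*, *H2-Q7* and *H2-T23*, the light chain gene *B2m*, the peptide transporter genes *Tap1* and *Tap2*, the loading factor gene *Tapbp* and the immunoproteasome subunit genes *Psmb8* and *Psmb9*. All 10 are listed in the data, which hold 19491 genes in all. CD45+ hematopoietic cells were sorted from the brain and from the dura mater of adult C57BL/6J mice, 8 weeks old per the series' design text, on day 3 after photothrombotic injury (PTI, D3), and from controls (S3). In PTI light activates a dye in the blood and vessels clot, in the dura mater and the pia mater as well as in the brain. The control libraries carry the label CT and are read here as the sham-operated group of the study. Each of the 4 conditions has 1 library made with 10× 3′ v3 reagents, and the sources used here do not give the number of mice behind it. With 1 library per condition, library and condition cannot be told apart, no P value is given, and the 95% intervals printed cover counting error only.

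MHC class I molecules show peptides from inside the cell to CD8+ T cells and are ligands of inhibitory receptors on NK cells. The proteasome cuts proteins into peptides, the transporter of *Tap1* and *Tap2* carries them into the endoplasmic reticulum, and tapasin, the product of *Tapbp*, holds an empty heavy chain paired with β2-microglobulin beside the transporter until a peptide is bound. Interferons raise most genes of the pathway, and the immunoproteasome subunits then replace their constitutive counterparts. Microglia of the healthy brain are known for a low level of the pathway, and its level is known to increase in them under interferon.

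In GENCODE vM21 on GRCm38, *B2m* lies on chromosome 2 from 122147686 to 122153083, on the plus strand. The other members lie on chromosome 17, inside and around the *H2* complex. *H2-K1* spans 33996017 to 34000347 on the minus strand, *Tapbp* 33915899 to 33929292, *Psmb8* 34197721 to 34201454 and *Tap2* 34203527 to 34216321 on the plus strand. *Psmb9* (34181987 to 34187764, minus) and *Tap1* (34187553 to 34197225, plus) face away from each other, and in RefSeq their starts are 226 bases apart. *H2-D1* (35262730 to 35267499, plus), *H2-Q7* (35439155 to 35443773, plus) and *H2-T23* (36029773 to 36032855, minus) are the more distal class I genes.

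The RefSeq promoter table of GRCm38 holds a window for 9 of the 10 members, all but *Tap2*. The 250 bases before each start were searched on both strands for a κB motif of NF-κB (GGGATTCCC), an interferon-stimulated response element (ISRE, GAAANNGAA) and a gamma-activated site (GAS, TTCNNNGAA). The classical genes and the Q-region gene, *H2-K1*, *H2-D1* and *H2-Q7*, carry the κB letters, which occur in 99 of 32851 windows (0.301%). *B2m* and *H2-T23* carry the ISRE letters, which occur in 2342 windows (7.13%), and *Psmb8* carries the GAS letters, which occur in 2306 windows (7.02%). The stretches below are shown because these motifs are where the known inducers of the pathway act, and the capitals mark the match. The *H2-K1* stretch is chr17:34000393-34000482 on the minus strand, *H2-D1* chr17:35262914-35262943 plus, *H2-Q7* chr17:35438998-35439087 plus, *B2m* chr2:122147523-122147612 plus, *H2-T23* chr17:36032805-36032834 minus and *Psmb8* chr17:34198088-34198117 plus.
*H2-K1*: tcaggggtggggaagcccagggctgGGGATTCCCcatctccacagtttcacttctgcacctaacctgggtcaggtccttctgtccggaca
*H2-Q7*: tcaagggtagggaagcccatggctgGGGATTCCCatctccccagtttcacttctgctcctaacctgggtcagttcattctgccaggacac
*H2-D1*: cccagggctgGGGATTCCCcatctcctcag
*B2m*: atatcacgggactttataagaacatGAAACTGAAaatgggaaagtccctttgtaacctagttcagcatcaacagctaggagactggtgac
*H2-T23*: tcctactgctTTCTCTTTCataaagacaca
*Psmb8*: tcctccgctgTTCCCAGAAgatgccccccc
The first matching base lay at position -110 from the start in *H2-K1*, -170 in *H2-D1*, -132 in *H2-Q7*, -139 in *B2m*, -123 in *H2-T23* and -97 in *Psmb8*. In *H2-T23* the capitals are the reverse complement of the ISRE. These positions count from the RefSeq start. In GENCODE vM21 the first exon of a transcript of *H2-D1*, *H2-T23* and *Psmb8* begins upstream of it, and the stretches of these 3 genes lie in the 5′ UTR of that exon. These matches are letters in a window and not measured binding. Only the letters given above were searched, so a gene without a match, such as *H2-K1* for the ISRE, can still hold a variant of that element.

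After filters, 14098 cells were kept, between 2603 and 4438 per library, with medians of 8252 (brain S3), 14269.5 (brain D3), 9320 (dura mater S3) and 14156 (dura mater D3) UMIs, the unique molecular identifiers that mark single RNA molecules. The files hold no cell types, so cells were gated on marker genes, which placed 77.4% of them in classes. Class names below stand for microglia-like, neutrophil-like and so on. Of 67 check genes that no gate used, 53 were highest in their own class. The exceptions were most frequent in the *Cd209a*- and *Clec10a*-gated dendritic cells called cDC2 (1 of 4 check genes highest), granulocyte precursors (1 of 3), Ly6C high monocytes (2 of 4) and neutrophils (2 of 4), so these names are less firm. The gate is a range and not a sharp type, and 479 of 10913 classed cells lay near its threshold. *S100a8* and *S100a9* in T and B cells, a measure of free RNA, reached 0.0991% to 0.269% of their neutrophil level. Between 3 and 11 cell barcodes were shared by any pair of libraries. Levels are given as CPM, the UMIs of a gene in a class for every 1000000 UMIs summed over the class. Orders and ranges of levels below are over classes of 50 or more cells, and values of smaller classes, added after the data were seen, are given beside some of them. In parentheses after a level or a log2 ratio stands its 95% interval. A 3′ UMI marks 1 end of a molecule, so gene length does not scale a level. Levels of different genes are set side by side on that basis, and other differences between genes in capture were not tested. Reads that fit several genes are dropped by the aligner, which can lower near-identical class I genes. In the last 500 bases of the longest coding transcript, 9 members shared no stretch of 90 bases with another gene, and *H2-T23* shared 13.4% of its stretches.

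*H2-K1* and *H2-D1* encode the classical heavy chains of the strain, which present peptides to CD8+ T cells. Among classes of 50 or more cells *H2-K1* was highest in NK cells in each library, at 3375 CPM in the brain at S3, 3579.7 in the brain at D3, 3062 in the dura mater at S3 and 3479 in the dura mater at D3. In microglia it was 766 (741 to 792) at S3 and 948 (927 to 969.7) at D3. Among classes of 50 or more cells, immature neutrophils were lowest in the 3 libraries that hold them at that number, at 447 in the brain at D3 and 204 and 228 in the dura mater at S3 and D3. NK cells are innate lymphocytes, and the interval of the next class of that size was apart from theirs in every library. Migratory dendritic cells, a smaller class described below, were above them in 3 libraries.

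*H2-D1* followed another order. In the brain it was highest in Ly6C low monocytes, the patrolling monocytes of the blood, at 4644 CPM at S3 and 4123 at D3, and lowest in microglia at 908 and 990.3. At D3 the interval of microglia overlapped that of immature neutrophils, whose level is given below. In the dura mater NK cells were highest among classes of 50 or more cells, at 3164 at S3 and 3033 at D3, and at D3 their interval overlapped that of T cells at 2975. The dural Ly6C low monocytes, 35 cells at S3 and 30 at D3, were above them at 4653 and 3859, and migratory dendritic cells were too, at 3500.1 and 3551. Neutrophils held far more of one heavy chain than of the other, with *H2-D1* at 3201 and *H2-K1* at 738 in the brain at S3, and 2777 against 553 in the dura mater at D3. In NK cells of the same libraries the levels of both genes were close, at 3420.1 and 3375 in the brain at S3.

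*B2m* encodes β2-microglobulin, the light chain that pairs with the class I heavy chains. Among classes of 50 or more cells it was highest in Ly6C low monocytes in the brain (3639 CPM at S3 and 2839 at D3) and in border macrophages in the dura mater (2394 and 2322). Of the smaller classes, migratory dendritic cells had 3403 in the brain at D3 and 3363 and 3584 in the dura mater, and dural Ly6C low monocytes had 3677 and 3063. Border macrophages are the resident macrophages of the meninges and vessels, gated here on genes such as *Mrc1* and *Lyve1*. Microglia, the resident macrophages of the brain tissue, were low in *H2-K1* and *H2-D1* but not in *B2m*, at 1661 at S3 and 1714 at D3. Immature neutrophils were lowest in the libraries that hold at least 50 of them, between 534 and 633.

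**Figure D1:**
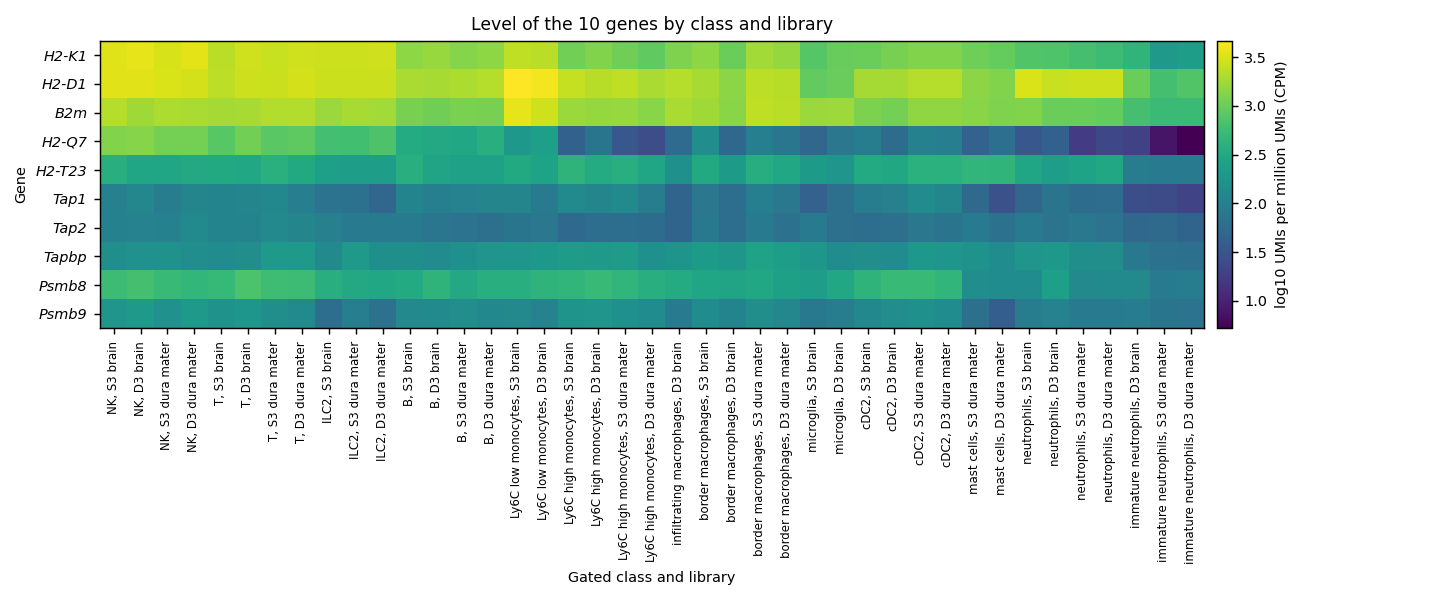
Level of each of the 10 genes (rows) in each gated class and library with at least 50 cells (columns), as the log10 of CPM in colour. The row of *H2-Q7* is bright only over lymphoid columns, and immature neutrophils are dark over most rows.

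*H2-Q7* encodes a nonclassical Qa-2 heavy chain. Among classes of 50 or more cells it was mainly a transcript of lymphoid cells. In NK cells it stood at 1268 CPM (brain S3), 1366 (brain D3), 1112 (dura mater S3) and 1112 (dura mater D3). T cells followed at 791, 1093, 806 and 862 in the same order, and B cells lay between 296 and 367. ILC2 (type 2 innate lymphoid cells) held 615 (brain S3), 601 (dura mater S3) and 702 (dura mater D3). Among myeloid classes of 50 or more cells only Ly6C low monocytes were above 147, at 193 at S3 and 242 at D3 in the brain. Of the smaller classes, migratory dendritic cells held 1045 (brain D3), 813 (dura mater S3) and 795 (dura mater D3). Plasmacytoid dendritic cells held 629, 540 and 540 in the same order. Dural Ly6C low monocytes held 256 at S3 and 192 at D3. With each cell thinned to 2000 UMIs, 87% to 88.6% of NK cells had an *H2-Q7* UMI, against 7.28% and 8.79% of microglia at S3 and D3. The same shares before thinning were 95.1% to 100% of NK cells and 26.2% and 34.8% of microglia. Of 64 immature neutrophils in the brain at D3 none had one at the thinned depth, although 21.9% had one before thinning.

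The level of *H2-Q7* over a whole library and within a class differed in direction. Over all kept cells of the brain it was 330.0 CPM at S3 and 122 at D3, whereas within T cells of the brain it was higher at D3, by 0.47 (0.37 to 0.56) on the log2 scale. T and NK cells made up 26.6% of kept cells in the brain at S3 and 6.47% at D3. In the dura mater, where that share was 7.68% and 8.57%, the library level was 179 and 146. The part of the class shares in the library level was not tested.

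*H2-T23* encodes the Qa-1 heavy chain, the ligand of the CD94 and NKG2 receptors of NK cells. Its order differed from that of *H2-Q7*. Among classes of 50 or more cells it was highest in the brain in Ly6C high monocytes, the inflammatory monocytes of the blood, at 437 CPM at S3 and 344 at D3, and in the dura mater in mast cells at 454 and 449. The interval of mast cells overlapped that of cDC2 in both dura mater libraries, at 395 at S3 and 397 at D3. Infiltrating macrophages (158) and immature neutrophils (91.1) were the lowest classes of the brain at D3. Among classes of 15 to 49 cells, added after the data were seen, plasmacytoid dendritic cells exceeded all of these at 722 to 852 CPM, and migratory dendritic cells held 459 to 626.

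*Tap1* and *Tap2* encode the chains of the peptide transporter. Over classes of 50 or more cells *Tap1* ranged from 20.9 CPM in immature neutrophils of the dura mater at D3 to 138 in cDC2 of the dura mater at S3. In the smaller classes it reached 197 to 279 in cDC1 and 163 to 189 in migratory dendritic cells. In Ly6C high monocytes it was 132 and 114 in the brain at S3 and D3, and 129 and 93.9 in the dura mater. *Tap2* had a narrower range, from 46.1 in infiltrating macrophages to 131 in NK cells of the dura mater at D3, and in smaller classes it reached 219 in migratory dendritic cells of the brain at D3. The balance of both chains differed by class. In neutrophils of the brain at S3 *Tap2* (84.3) was above *Tap1* (48.7), and in Ly6C high monocytes of the same library *Tap1* was above *Tap2* (53.7). Over classes of 50 or more cells tapasin RNA (*Tapbp*) was highest in border macrophages of the dura mater, at 259 at S3 and 234 at D3, and lowest in immature neutrophils, at 64.2 to 81. Migratory dendritic cells held more of it, 341 to 408, and plasmacytoid dendritic cells of the dura mater 262 and 343.

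*Psmb8* and *Psmb9* encode the β5i and β1i subunits of the immunoproteasome. *Psmb8* was highest in T or NK cells in each library among classes of 50 or more cells, at 542 CPM in NK cells (brain S3) and 672, 563 and 549 in T cells (brain D3, dura mater S3 and D3). Immature neutrophils held the least where they were counted, 88.3 to 126. Over the same classes *Psmb9* ranged from 40 in mast cells of the dura mater at D3 to 206 in NK cells of the brain at D3. The smaller classes cDC1 and migratory dendritic cells held more of both. The share of the inducible subunit among its own UMIs and those of the constitutive subunit it replaces was also counted. For *Psmb8* against *Psmb5* it was high in T cells, 77.7% (75.2 to 80) in the dura mater at S3 and 79.7% (76.9 to 82.4) at D3, and in cDC2, 78.6% (76.8 to 80.4) and 76.3% (74.1 to 78.4). It was lowest in immature neutrophils, 43% (39.8 to 46.3) and 45.1% (41.4 to 48.8). For *Psmb9* against *Psmb6* it was highest in mature neutrophils in 3 libraries, at 67.6% (61.7 to 73.2) in the brain at S3 and 65.9% (60 to 71.5) and 64.6% (58.7 to 70.1) in the dura mater at S3 and D3. A share is not a level, and neutrophils of the brain at S3 had 184 *Psmb9* and 88 *Psmb6* UMIs. Among classes of 50 or more cells of that library the *Psmb9* level was highest in NK cells, at 181 CPM. Their interval overlapped that of Ly6C high monocytes, at 174 CPM. In the brain at D3 the share of neutrophils, 53.4% (47.9 to 58.8), overlapped that of T cells, 54.7% (49.6 to 59.8). In microglia the *Psmb9* share was 36.6% (33.6 to 39.6) at S3 and 27.1% (25.5 to 28.9) at D3, and the intervals did not overlap. *Psmb9* UMIs were 372 at S3 and 732 at D3, and those of *Psmb6* 645 and 1965, in 4588662 and 8086759 UMIs of the class. The level of *Psmb9* itself was not lower at D3, and the interval of its ratio included 0. The share of *Psmb10*, the β2i subunit, against *Psmb7* lay between 24.4% in immature neutrophils of the dura mater at S3 and 74.6% in NK cells of the brain at S3.

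The members were also summed within each cell. In the median Ly6C low monocyte of the brain at S3 they made up 120.1 of 10000 UMIs, in the median NK cell 111 to 117 and in the median immature neutrophil 16.7 to 20. Microglia had a median of 36.1 at S3, with 10% of cells under 24.2 and 10% over 60.2, and 37.6 at D3, with the same limits at 22.9 and 68.6. The upper limit of microglia at D3 thus lay above their upper limit at S3, while the medians were close. In T cells of the brain the median was 81.2 at S3 and 102 at D3.

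**Figure D2:**
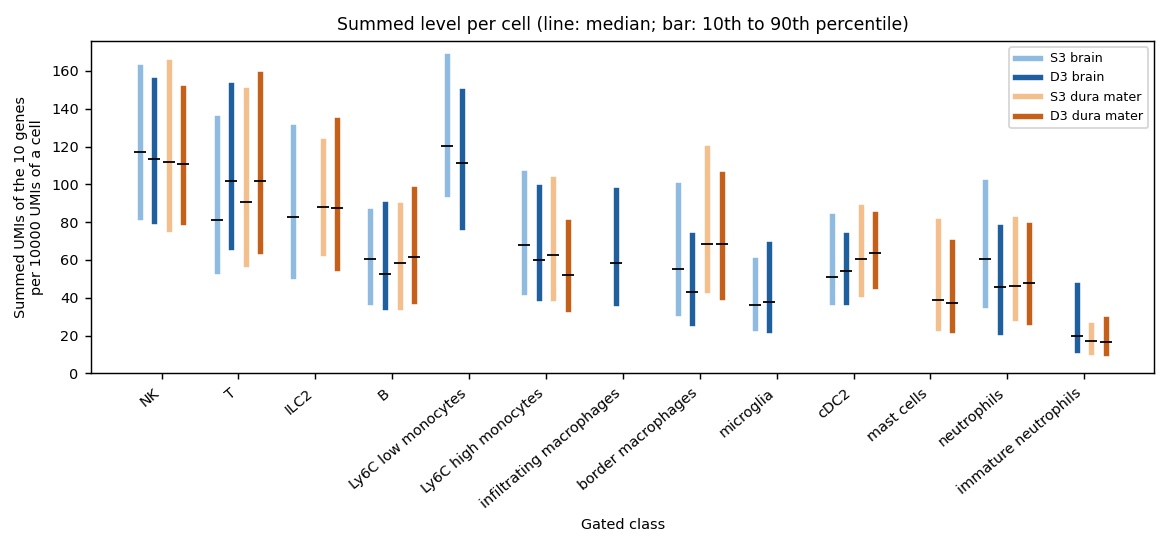
Summed UMIs of the 10 genes per 10000 UMIs of a cell, by gated class and library, with the median as a line and the 10th to 90th percentile as a bar. Of these classes of 50 or more cells, NK cells and Ly6C low monocytes are highest with medians from 111 to 120.1, and immature neutrophils are lowest of the classes plotted.

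Across the 41 groups of a class and library with at least 50 cells, the log2 level of each member was set against the mean of the other 9. Pearson's r was 0.94 for *H2-K1* and 0.84 for *Psmb8*, and lowest for *Tapbp* (0.59), *Psmb9* (0.60) and *H2-T23* (0.62). Of 9646 genes compared with the mean of the members over the same groups, the most alike were the class I-like gene *H2-T22* (0.94), *Idnk* (0.91), *Shisa5* (0.91), *Mta3* (0.89) and *Gm4070* (0.88). The groups share 4 libraries and their depths, so these are descriptions of likeness.

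In the brain, the comparison of D3 with S3 asks how the pathway stood in each class after PTI. Microglia at D3 were higher in 7 of the 10 genes, of which *B2m* changed side without the filter on cells (-0.025), with cells of equal weight (-0.03) and with the gate threshold doubled (-0.035). *H2-Q7* was 48.6 CPM at S3 and 77.2 at D3, a log2 ratio of 0.67 (0.44 to 0.89). *Tap1* was 44.2 and 63.3 (0.52, 0.28 to 0.76). *Psmb8* was 234 and 297 (0.34, 0.24 to 0.45). The classical *H2-K1* also had an interval above 0 at 0.31 (0.25 to 0.37), with *H2-D1* at 0.13 (0.07 to 0.18) and *B2m* at 0.05 (0.01 to 0.09). The other transporter chain and the loading factor lay on the other side. *Tap2* was 85.9 and 63.6 (-0.43, -0.63 to -0.24), *Tapbp* -0.37 (-0.49 to -0.24) and *H2-T23* -0.24 (-0.36 to -0.12). With cells thinned to 2000 UMIs *H2-T23* was on the other side at 0.035. Only *H2-Q7* was past 1.5-fold, 1 of 10 members, where 11.1% of all 11094 genes with at least 20 UMIs were past 1.5-fold higher. The median of the members was 0.14 beside -0.15 over all genes. T cell gate genes, 6 of 6 detected in both libraries, summed to 57.5 CPM in microglia at S3 and 78.4 at D3, and the T cell level of *H2-Q7* scaled to that amount would be 8.49 and 16.2 CPM. A list of 12 genes of tissue dissociation stress had a median of -0.67 in microglia, and its part in these differences was not tested.

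Border macrophages of the brain were lower at D3 in all 10 genes, though *Psmb8* was above 0 with cells thinned (0.37) or centred on all genes (0.025), and 7 of the intervals lay below 0. *H2-Q7* was 147 CPM at S3 and 50.4 at D3 (-1.54, -1.95 to -1.15). *H2-T23* was 321 and 210.3 (-0.61, -0.83 to -0.39). *H2-K1* was 1449.7 and 1009 (-0.52, -0.62 to -0.42), short of 1.5-fold. *H2-Q7* and *H2-T23* were the 2 members past 1.5-fold lower, where 12.3% of all genes were. The median of the members was -0.38 beside -0.08 over all genes. The neighbouring Q-region genes *H2-Q6* (-1.44, -2.23 to -0.70) and *H2-Q4* (-1.04, -1.45 to -0.63) were lower as well. Lymphocyte RNA moved with these values. T cell gate genes, 6 of 6 detected, summed to 205 CPM in border macrophages at S3 and 36.1 at D3, and B cell gate genes to 146 (5 of 5 detected) and 21.2 (4 of 5). At that amount the T cell level of *H2-Q7* would give 30.2 CPM at S3 and 7.45 at D3, and the part of lymphocyte RNA in the difference was not tested.

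Ly6C high monocytes of the brain had both directions at D3. *H2-Q7* was 43.4 CPM at S3 and 72.1 at D3 (0.73, 0.48 to 0.99), the 1 member past 1.5-fold, where 9.71% of all genes were past it in that direction. *H2-K1* (0.23, 0.18 to 0.29) and *Psmb8* (0.21, 0.13 to 0.29) were higher, and *H2-T23* (-0.35, -0.44 to -0.26), *Tap1* (-0.21, -0.37 to -0.05) and *H2-D1* (-0.20, -0.23 to -0.16) were lower. The median was -0.01 beside -0.09 over all genes, and the stress list had a median of -0.86. In Ly6C low monocytes *B2m* was 3639 at S3 and 2839 at D3 (-0.36, -0.44 to -0.28) and *H2-D1* differed by -0.17 (-0.24 to -0.10). The intervals of the other 8 members in Ly6C low monocytes included 0.

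Neutrophils of the brain carried more *Psmb8* at D3, 142 CPM at S3 and 240.1 at D3 (0.76, 0.54 to 0.99), the 1 member past 1.5-fold, where 22.6% of all genes were. *Tap1* was 48.7 and 70.9 (0.54, 0.14 to 0.94). Of the surface chains 3 had an interval below 0, *B2m* at -0.34 (-0.43 to -0.26), *H2-D1* at -0.29 (-0.35 to -0.24) and *H2-T23* at -0.36 (-0.54 to -0.17). *H2-Q7* was 33 CPM at S3 and 43 at D3, and its interval and that of *H2-K1* included 0. The median over the members was 0.04 and over all genes 0.10. The member median changed side under 7 of 8 alternatives, to between -0.20 and -0.053, and stayed above 0 only without mitochondrial and ribosomal genes. Of 6 other proteasome genes tested in neutrophils, 5 were past 1.5-fold higher, with a list median of 0.74. Of 6 genes of loading in the endoplasmic reticulum, 4 were, among them the chaperone gene *Calr* from 134 to 295 CPM. *H2-Q10*, a class I gene without membrane anchor, was lower, at 538 and 212 CPM (-1.35, -1.52 to -1.17). The stress list had a median of -0.81 in neutrophils.

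In T cells of the brain 8 members were higher at D3 and none was past 1.5-fold, and *B2m* among the 8 was at -0.016 without mitochondrial and ribosomal genes and -0.026 with the gate threshold doubled. *H2-Q7* was 791 CPM at S3 and 1093 at D3, *Psmb8* 495 and 672 (0.44, 0.32 to 0.56) and *H2-K1* 2292 and 2872 (0.33, 0.27 to 0.38). The share of genes past 1.5-fold higher was 10.3%. NK cells had a median of 0.07, which was -0.063 with the gate threshold doubled, *B2m* at -0.31 (-0.40 to -0.22) and *Psmb8* at 0.20 (0.04 to 0.35). *Ifng*, the gene of the interferon that NK and T cells secrete, was 479.6 CPM in NK cells at S3 and 933 at D3. In cDC2 *H2-Q7* was 89.2 and 57.2 (-0.64, -0.95 to -0.33), past 1.5-fold lower where 12% of all genes were, while *Psmb8* (0.26, 0.15 to 0.38) and *H2-K1* (0.19, 0.12 to 0.27) were higher. T cell gate genes summed to 38.3 CPM in cDC2 at S3 (6 of 6 detected) and 7.84 at D3 (5 of 6). In B cells *H2-T23* was at -0.42 (-0.76 to -0.09) and *Psmb8* at 0.38 (0.10 to 0.65), with a member median of -0.12, and with cells thinned *Psmb8* was at -0.0057.

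**Figure D3:**
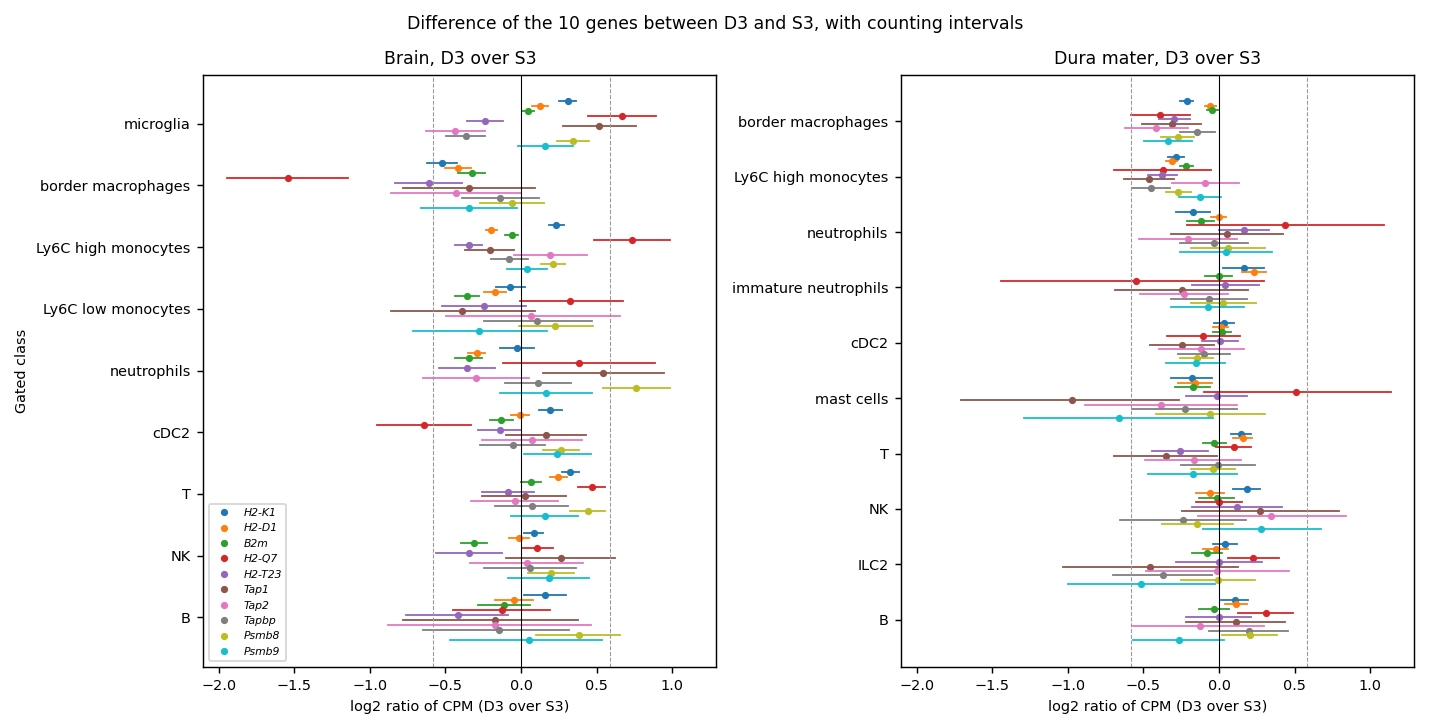
Log2 ratio of CPM, D3 over S3, for each of the 10 genes by gated class, in the brain (left) and the dura mater (right), with exact 95% counting intervals as lines and 1.5-fold as dashed lines. Border macrophages lie left of 0 for all genes in both tissues when scaled by total UMIs, and *H2-Q7* is farthest out in several classes of the brain.

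Infiltrating macrophages, gated on *Arg1*, *Gpnmb*, *Thbs1* and *Spp1*, numbered 1080 in the brain at D3 and 2 at S3, so they were set against other classes of the same library, in a comparison chosen after the data were seen. Against Ly6C high monocytes they held like levels of the classical chains. *H2-K1* was 1247 CPM in infiltrating macrophages and 1279 in Ly6C high monocytes, and *H2-D1* was 2176 and 2250.0. *B2m* was higher in infiltrating macrophages, 1942 against 1592 (0.29, 0.26 to 0.32). The nonclassical chain, the transporter and the immunoproteasome were lower. *Tap1* was 47.1 against 114 (-1.28, -1.41 to -1.14). *H2-T23* was 158 against 344 (-1.13, -1.20 to -1.05). *Psmb9* was 86.6 against 178 (-1.04, -1.15 to -0.94). With *Psmb8* at -0.61 (-0.67 to -0.55), 4 of 10 members were past 1.5-fold lower, where 20% of all genes were. The median of the members was -0.38 beside -0.01 over all genes. With the gate threshold doubled *H2-K1* (0.21) and *H2-Q7* (0.73) were higher in infiltrating macrophages. Cells of both classes came from 1 library, so no condition separates them.

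The immunoproteasome share of infiltrating macrophages was low too. *Psmb9* made up 18.9% (18.2 to 19.6) of *Psmb9* and *Psmb6* UMIs, against 47.3% (45.3 to 49.3) in Ly6C high monocytes and 27.1% (25.5 to 28.9) in microglia of the library. *Psmb8* made up 55.5% (54.7 to 56.3) of *Psmb8* and *Psmb5* UMIs, against 68.8% (67.5 to 70) in Ly6C high monocytes. No other class of at least 50 cells had a *Psmb9* share as low. Of the 12 regulators listed, 6 were past 1.5-fold lower in infiltrating macrophages than in Ly6C high monocytes and none was higher. Of all genes 20% were past it lower and 20.9% higher. *Ciita*, the transactivator of class II genes, was 41.6 CPM in Ly6C high monocytes and 4.33 in infiltrating macrophages. Of 13 interferon-stimulated genes, 10 were past 1.5-fold lower and 1 was higher, beside the same shares of all genes. Of 6 loading genes of the endoplasmic reticulum, 4 were past 1.5-fold higher, where 20.9% of all genes were, with a list median of 0.69. Against microglia of the library, *H2-D1* of infiltrating macrophages was higher by 1.14 (1.10 to 1.17), the 1 member past 1.5-fold where 13.6% of all genes were. Against border macrophages it was higher by 0.59 (0.53 to 0.65), again the 1 member past it where 16.2% of all genes were.

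**Figure D4:**
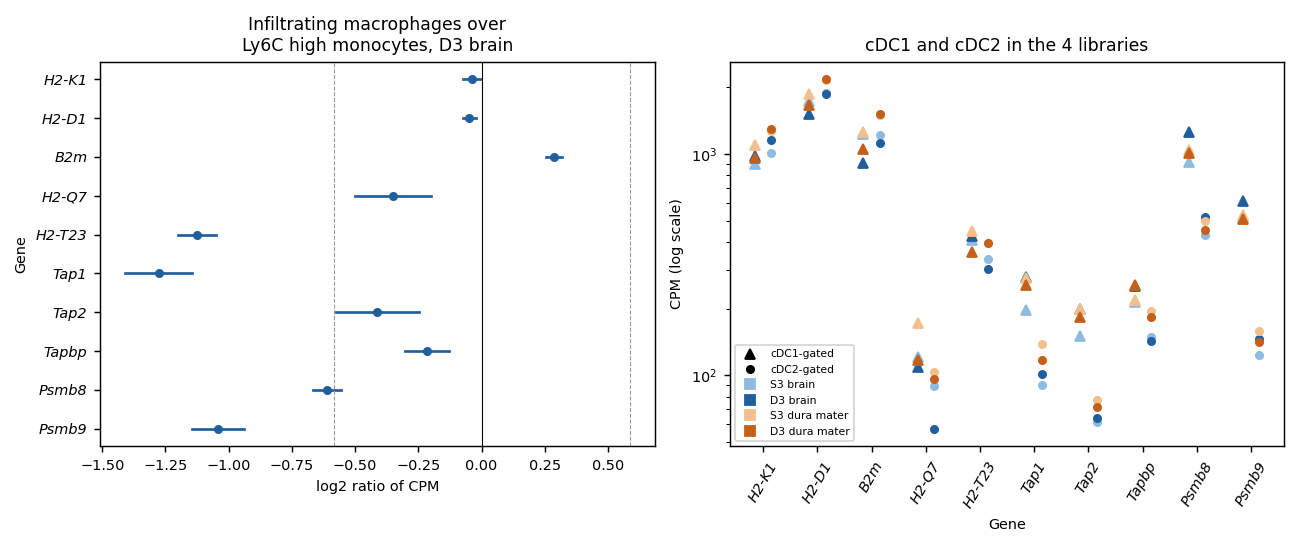
Left, log2 ratio of CPM of infiltrating macrophages over Ly6C high monocytes in the brain at D3 for each gene, with exact 95% counting intervals. Right, CPM of each gene in cDC1 (triangles) and cDC2 (circles) in the 4 libraries on a log axis, where *Tap1*, *Tap2*, *Psmb8* and *Psmb9* of cDC1 lie above cDC2 in every library.

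In the dura mater, border macrophages were lower at D3 in all 10 genes and all 10 intervals lay below 0, but *H2-D1* (0.0041) and *B2m* (0.018) were above 0 when centred on the median of all genes, and *H2-T23* (0.035) with cells thinned. *Tap2* was 88.6 CPM at S3 and 66.5 at D3 (-0.42, -0.62 to -0.21), *H2-Q7* 99 and 75.6 (-0.39, -0.59 to -0.19) and *Psmb9* 151 and 119.8 (-0.34, -0.49 to -0.18). The differences were small. None was past 1.5-fold, where 7.67% of all genes were past it in that direction, *H2-D1* differed by -0.06 (-0.10 to -0.02) and *B2m* by -0.04 (-0.08 to -0.01). The median of the members was -0.28 beside -0.06 over all genes. The gate genes of T cells summed to 67.5 CPM at S3 and 56.4 at D3 in dural border macrophages, with 6 of 6 detected in both, and the stress list had a median of -0.22.

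Ly6C high monocytes of the dura mater were lower at D3 in all 10 genes as well, with 8 intervals below 0. *Tap1* was 129 CPM at S3 and 93.9 at D3 (-0.46, -0.63 to -0.30). *Tapbp* was 215 and 158 (-0.45, -0.57 to -0.32). *H2-T23* was 376 and 290.2 (-0.37, -0.47 to -0.28). *Tap2* and *Psmb9* had intervals that included 0 and were above 0 with cells thinned, *Tap2* also with the gate threshold doubled, and none of the 10 was past 1.5-fold, where 8.09% of all genes were past it. The median was -0.30 beside -0.05 over all genes, and of 12 interferon-stimulated genes tested 7 were past 1.5-fold lower, *Ifit3* from 64.5 to 21.9 CPM. The stress list had a median of -0.42 in these monocytes.

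The other dural classes showed little common movement. Member medians were 0.02 in neutrophils, -0.03 in immature neutrophils, -0.10 in cDC2, -0.03 in T cells, 0.06 in NK cells, -0.02 in ILC2 and 0.11 in B cells, and single members lay between -0.55 and 0.43. The medians of neutrophils, immature neutrophils, NK cells and ILC2 changed side under at least 1 alternative. In B cells *H2-Q7* was 296 CPM at S3 and 367 at D3 (0.31, 0.12 to 0.49). Mast cells, the histamine-storing cells of the dura mater, had a median of -0.18. In mast cells *Tap1* was 54.9 and 28 (-0.97, -1.71 to -0.26) and *Psmb9* 63.3 and 40 (-0.66, -1.29 to -0.04), the 2 members past 1.5-fold lower, where 10.4% of all genes were. *Ifng* in NK cells of the dura mater was 349 CPM at S3 and 109 at D3.

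Dura mater and brain at S3 were compared as the controls of both tissues, and the brain S3 library is the same as in the comparison of D3 with S3. In cDC2 all 10 genes were higher in the dura mater, 9 with an interval above 0, and *Psmb9* was at -0.20 with cells thinned. *Tap1* was 90.5 CPM in the brain and 138 in the dura mater (0.61, 0.37 to 0.85), the 1 member past 1.5-fold, where 13.8% of all genes were past it. The median was 0.31 beside 0.11 over all genes. In border macrophages *B2m* was 1741 and 2394 (0.46, 0.39 to 0.53) and *H2-K1* was higher by 0.33 (0.25 to 0.41), while *H2-Q7* differed by -0.57 (-0.84 to -0.29). T cell gate genes in border macrophages, given above, were higher in the brain at S3 as well. In neutrophils *H2-Q7* was 33 in the brain and 17.0 in the dura mater (-0.96, -1.58 to -0.36), past 1.5-fold lower where 17.4% of all genes were. T cell gate genes in neutrophils summed to 49.8 CPM in the brain (6 of 6 detected) and 29.8 in the dura mater (5 of 6), and their part in the difference was not tested. In ILC2, the type 2 innate lymphoid cells, *Psmb9* was 60 and 96 (0.68, 0.06 to 1.32), past 1.5-fold higher where 18.1% of all genes were. Medians in the other classes were -0.03 in Ly6C high monocytes, 0.19 in T cells, -0.11 in NK cells and -0.06 in B cells. For T cells the all-gene median was 0.19, as high as that of the members, and for B cells it was 0.30.

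Classes were also compared within each library, after the data were seen. cDC1 are the dendritic cells that cross-present antigen to CD8+ T cells, and 22 to 42 were gated per library. *Psmb9* was 517 CPM in cDC1 of the brain at S3, 615 in the brain at D3, 530.2 in the dura mater at S3 and 507 in the dura mater at D3. In cDC2 it was 124, 146, 158 and 142 in the same order. cDC1 thus exceeded cDC2 in every library, with log2 ratios of 1.75 to 2.07. *Psmb8* of cDC1 was 919.5, 1253, 1043 and 1008 CPM, a log2 ratio of 1.06 to 1.28 over cDC2. *Tap2* had ratios of 1.30 to 1.63 and *Tap1* of 0.99 to 1.46. These 4 genes were past 1.5-fold in each library. The counts of members past it were 4 in the brain at S3, 6 in the brain at D3, 5 in the dura mater at S3 and 4 in the dura mater at D3, where 19.1%, 20%, 12.1% and 14.9% of all genes were. The classical chains of cDC1 were at or below those of cDC2, with *H2-K1* ratios of -0.44 to -0.17 and *H2-D1* ratios of -0.38 to -0.11. The light chain gene *B2m* was also lower in the brain at D3 and in both dura mater libraries, but not in the brain at S3. In the dura mater at D3 it was the lowest member, at -0.53. The *H2-D1* ratio of the brain at S3 was above 0, by up to 0.091, without the filter on cells, with the gate threshold doubled, with cells thinned and with cells of equal weight.

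Migratory dendritic cells, gated on genes such as *Ccr7* and *Fscn1*, numbered 32 in the brain at D3 and 17 in each dura mater library. Against cDC2 all 10 genes were higher in the 3 libraries. *H2-Q7* was 1045 CPM against 57.2 in the brain at D3 (4.19, 3.91 to 4.48). It was 813 against 103 in the dura mater at S3 and 795 against 96 at D3. *H2-K1* was 4008, 3413 and 3579.6 in migratory dendritic cells of the brain at D3 and the dura mater at S3 and D3. NK cells of the same libraries were lower at 3579.7, 3062 and 3479, with intervals apart in the brain and overlapping in the dura mater. Past 1.5-fold were 10, 7 and 10 members in that order, where 23.4%, 19% and 20.7% of all genes were. The member medians were 1.58, 0.84 and 1.06.

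Immature neutrophils, which still carry granule genes such as *Camp* and *Ngp*, were lower than mature neutrophils in all 10 genes in each library, except that *H2-Q7* in the brain at S3, with 22 immature cells, was higher with cells thinned (0.76) or of equal weight (0.15). *H2-D1* was 625 CPM against 2782 in the dura mater at S3 and 734 against 2777 at D3, with log2 ratios of -2.16 (-2.22 to -2.09) and -1.92 (-1.99 to -1.85). In the brain at D3 it was 1005 against 2609 (-1.38, -1.46 to -1.30). *Psmb9* differed least. Its ratios were -0.31 to -0.16 and those of *Tap2* -0.56 to -0.36. The members past 1.5-fold lower were 7 (brain S3, where 22 immature cells were gated), 8 (brain D3), 7 (dura mater S3) and 7 (dura mater D3). The matching shares of all genes were 41.1%, 34.7%, 29.5% and 32.9%. Of the interferon-stimulated genes tested in the dura mater, 12 of 12 were lower in immature cells at S3 and 12 of 13 at D3.

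NK cells exceeded B cells in *H2-K1*, *H2-Q7* and *B2m* in each library. The log2 ratios of *H2-Q7* were 1.60 to 2.13 and the lowest of *H2-K1* was 1.14, in the brain at D3. *Tap1* and *Tapbp* had intervals that included 0 in all 4 libraries. In each library 5 members were past 1.5-fold higher, where 24.8% (brain S3), 32.2% (brain D3), 17.1% (dura mater S3) and 21.6% (dura mater D3) of all genes were.

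Interferon-stimulated genes, the RNA signature of interferon, were counted beside the members. In microglia of the brain all 12 tested of the 13 listed were past 1.5-fold higher at D3, with a list median of 2.40 beside 0.14 for the members, where 11.1% of all genes were past it. The antiviral gene *Rsad2* was 1.96 CPM at S3 and 39.7 at D3, the transcription factor gene *Irf7* 8.28 and 64.7, and the ubiquitin-like gene *Isg15* 28.8 and 149. Microglia with at least 4 of the listed genes made up 6.31% at S3 and 24.5% at D3. In neutrophils of the brain 7 of 11 tested were past 1.5-fold higher, where 22.6% of all genes were, with a list median of 1.04. The member median beside it was 0.04 and, as given above, below 0 under most alternatives. In B cells of the dura mater 10 of 12 tested were past 1.5-fold lower, with a median of -2.01, where 16.6% of all genes were. In cDC2 of the dura mater 11 of 13 were, with a median of -1.49, where 7.63% of all genes were. The member medians there were 0.11 and -0.10. Over the classes of both tissues the list medians spanned -2.01 to 2.40, and those of the 10 genes -0.38 to 0.14. Across cells of 1 library, Spearman's rho between the summed members and the summed interferon-stimulated genes was 0.62 in 426 Ly6C high monocytes and 0.38 in 546 microglia of the brain at D3, 0.22 in 412 microglia at S3 and -0.01 in 183 Ly6C low monocytes at D3. Cells share their library and differ in depth, so these values are descriptions.

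**Figure D5:**
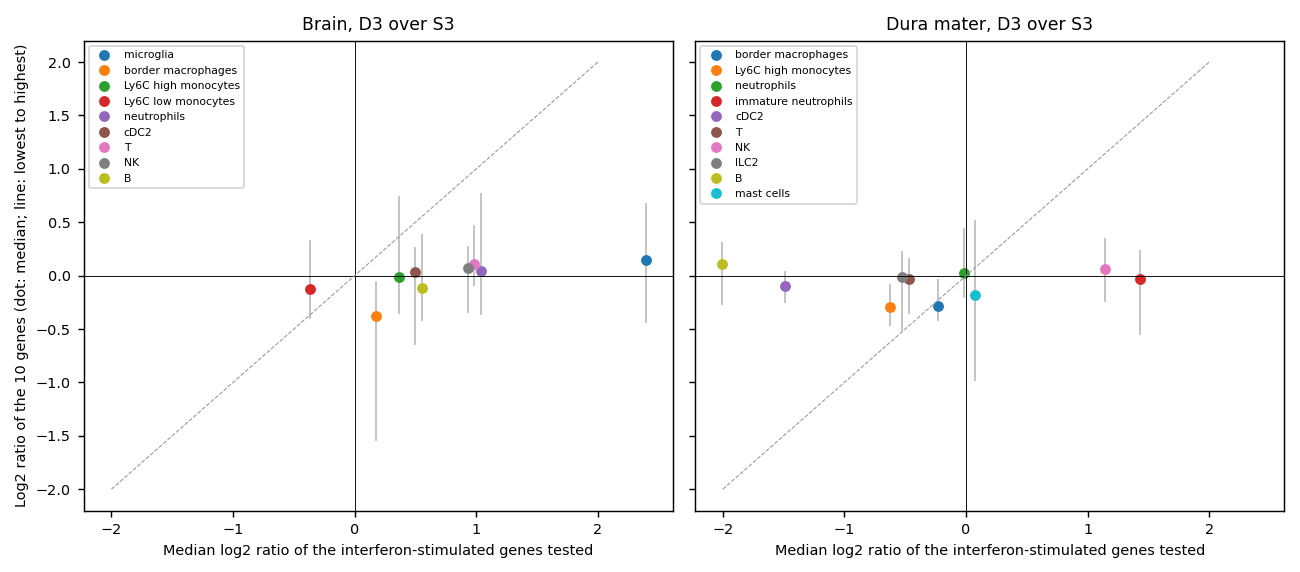
For each gated class, the median log2 ratio (D3 over S3) of the interferon-stimulated genes tested (x axis) against the log2 ratio of the 10 genes (y axis; dot, median; line, lowest to highest), in the brain (left) and the dura mater (right), with equal values dashed. Microglia of the brain lie at 2.40 on the x axis and 0.14 on the y axis, and B cells of the dura mater at -2.01 and 0.11.

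The remaining lists of the pathway were counted in the same way. Receptors for class I were past 1.5-fold higher in 5 of 10 tested in microglia of the brain at D3 and lower in none, where 11.1% of all genes were higher and 16.8% lower. NK cell gate genes, 5 of 5 detected in both libraries, summed to 13.3 CPM in microglia at S3 and 26.3 at D3. T cell gate genes there summed to 57.5 and 78.4 CPM, and the part of lymphocyte RNA in this count was not tested. Among Ly6C high monocytes of the brain at D3, the NK receptor gene *Klrd1* was 13.4 CPM at S3 and 58.3 at D3 and *Calr* 362 and 807. Of the regulators, 2 of 12 were past 1.5-fold higher in microglia and none lower, beside the same shares of all genes, so that the count of higher ones is near the 11.1% of the background, with a list median of -0.12. Of the other class I and class I-like genes, 3 of 10 tested were past 1.5-fold lower and none higher in border macrophages of the dura mater at D3, where 7.67% of all genes were lower and 5.1% higher. *H2-Q6* there went from 44.7 to 21.9 CPM. The inhibitory receptor gene *Pirb*, whose product binds class I molecules, was higher in the same cells, 86.1 CPM at S3 and 179.7 at D3.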

How the data were processed

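CD45+ cells of 4 libraries, 1 per condition, were captured and sequenced with 10× Chromium 3′ chemistry by the authors, and the submitters' processing notes name Cell Ranger 3.1.0, Seurat 3.1.0 and mm10. The values the authors deposited are the natural log of 1 plus a gene's UMIs divided by its cell's UMIs times 10000. UMIs were recovered as whole multiples of each cell's smallest value, within 1e-06, for 100% of entries. Cells outside 1000 to 6000 detected genes, or above 7% mitochondrial UMIs, were left out. Scrublet (scanpy 1.11.5) gave each cell a doublet score. Its automatic threshold marked 0 to 0.063% of a library, so cells with the highest scores were taken out at 0.8% per 1000 barcodes.

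Cells were gated on marker genes. The scoring of the gates was set from gate genes alone, after marker levels were seen, at a threshold of 0.4, and a class needed 50 cells, or 15 for the classes added after the data were seen. UMIs were summed over a class and library. Levels have exact Poisson, shares exact binomial (Clopper-Pearson) and ratios exact Poisson-ratio 95% intervals. A gene entered the background from 20 UMIs over both groups and was called past 1.5-fold, with 0 set to a floor of 3 UMIs. Depth was compared with cells thinned to 2000 UMIs. All 10 members are named, and of the pathway lists at most 6 genes per comparison that were past 1.5-fold with 50 UMIs and an interval off 0. The members and lists were chosen with earlier results of these data known. Alternatives were cells without the filter, doublets kept, a doubled gate threshold, thinned cells, cells of equal weight, a denominator without mitochondrial and ribosomal genes, centring on all genes, 2500 cells per library and a 2-fold call. The steps were tested on simulated data. Python 3.11.15, numpy 2.4.6, scipy 1.17.1, pandas 2.3.3 and matplotlib 3.10.9 were used.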

Additional observations from a re-analysis of the deposited data

Results flagged for a closer look

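In 3 classes a member lay on opposite sides of 0 in the brain and the dura mater with both counting intervals off 0. The log2 ratios are D3 over S3, and the difference between the tissues was not tested, since each tissue has 1 library per condition. In Ly6C high monocytes *H2-K1* was 0.23 (0.18 to 0.29) in the brain and -0.28 (-0.34 to -0.23) in the dura mater. *H2-Q7* in the same class was 0.73 (0.48 to 0.99) and -0.37 (-0.69 to -0.05). *Psmb8* there was 0.21 (0.13 to 0.29) and -0.27 (-0.35 to -0.19). Neutrophils had *H2-T23* at -0.36 (-0.54 to -0.17) in the brain and 0.17 (0.0022 to 0.33) in the dura mater. cDC2 had *Psmb8* at 0.26 (0.15 to 0.38) and -0.15 (-0.26 to -0.04). With cells thinned to 2000 UMIs the dural value in cDC2 was 0.031.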

How the results depend on the processing

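No paired analysis was possible because each condition has 1 library and the labels carry no replicate numbers. The comparisons between libraries hold 270 ratios of a member in a class. Those with an interval off 0 that changed sign numbered 1 without the filter on cells, 0 with doublets kept, 12 with the gate threshold doubled and 11 with cells thinned. They numbered 1 with cells of equal weight, 1 without mitochondrial and ribosomal genes, 6 with centring on all genes and 0 with 2500 cells. The medians over the 10 genes below moved out of the interval taken for them, and the cause was not tested. With the gate threshold doubled the D3 over S3 median was -0.14 in neutrophils of the brain, 0.31 in cDC2 of the brain with 7 control cells, -0.35 in Ly6C high monocytes and -0.18 in NK cells of the dura mater. The S3 dura mater over brain median was then 0.44 in cDC2, again with 7 brain cells, and 0.052 in NK cells, and that of infiltrating macrophages over Ly6C high monocytes was -0.17. With cells thinned to 2000 UMIs it was -0.14 in neutrophils of the brain, -0.15 in border macrophages of the dura mater, 1.24 and 0.73 for cDC1 over cDC2 in the brain and dura mater at D3, and -0.80 and -0.96 for immature over mature neutrophils in the brain at S3 and the dura mater at D3. Cells of equal weight gave -0.72 for the brain at S3. *H2-Q7* in that last comparison reversed to 0.76 when thinned and 0.15 at equal weight. With doublets kept neutrophils of the brain were at -0.20. Without mitochondrial and ribosomal genes the S3 dura mater over brain median was 0.013 in T cells and -0.20 in B cells, and centred on all genes it was -0.0011 and -0.37. Centring put microglia at 0.29. At 2-fold, the pairs of a member and a class past the fold numbered 0 higher and 1 lower for the brain, 0 lower for the dura mater, and 0 higher and 0 lower between the tissues at S3. The comparisons within a library and the classes under 50 cells were chosen after seeing the data. With 1 library per condition, counting error is the only error the depth sets here.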
